A study of Saccharomyces cerevisiae with 12 samples.

Results

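The genes described here encode the proteins of the large (60S) subunit of the cytoplasmic ribosome of budding yeast. They were taken as every array gene whose standard symbol was RPL with a number and an optional A or B, together with RPP0, RPP1A, RPP1B, RPP2A and RPP2B, and with the mitochondrial MRPL genes left out. Of 81 such genes in the gene table, 79 were on the array, out of 6293 array genes, and RPL29 and RPL36B were not on it. All but RPL4B had a value at every time, so that 78 entered the fits, which covered 6283 genes.

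The study followed sporulation of the diploid SK1 strain, a laboratory background that enters meiosis quickly and in synchrony. RNA was taken at 0.0, 0.5, 1.0, 1.5, 2.0, 2.5, 3.5, 4.0, 4.5, 5.0, 5.5 and 6.0 h, and each of these 12 samples pooled cells of 6 cultures grown on 1 day. The labels name no mutation, transgene or drug, so all samples share the SK1 strain and differ in time alone. Each sample was set against time-zero RNA on 2 spotted arrays, an A array with the later RNA in the dye Cy5 and a B array with the dyes exchanged. The times were grouped into a zero sample (0.0 h, n = 1), an early window (0.5 to 2.0 h, n = 4), a middle window (2.5 to 4.5 h, n = 4) and a late window (5.0 to 6.0 h, n = 3).

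A large ribosomal subunit joins ribosomal RNA with many small basic proteins, and it holds the peptidyl transferase centre that forms peptide bonds. In yeast most of its proteins are encoded by a pair of near-identical genes, called A and B, that arose in an ancient duplication of the genome. In growing cells these genes are among the most strongly transcribed, under Rap1, Fhl1, Ifh1 and Sfp1, and starvation, the signal that starts sporulation, is known to lower their transcription. Values below are log2 ratios of later RNA over time-zero RNA, averaged over both arrays of a time, so that a negative value means less of the transcript than at time zero relative to the other genes on the array. In RNA from whole cultures, fewer cells with a transcript and less of it per cell cannot be told apart. Probe sequences were not used here, and how far the probes of A and B copies bind each other's RNA was not tested, so the level of a single copy is uncertain.

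The 2 arrays of a time did not always show the same course. Over all genes, the A and B log2 ratios had a correlation of -0.01 at 5.0 h and -0.02 at 6.0 h, and between 0.17 and 0.58 at the other times. The median log2 ratio of 8 genes of the meiotic divisions and spore formation was -0.04 on the A array and 5.83 on the B array at 5.0 h. It was 7.71 on A and -0.06 on B at 6.0 h, and 0.18 on A and 3.31 on B at 3.5 h. At each of these 3 times, 1 array of the 2 thus showed these genes raised and the other did not. The count of members called and their median difference between the late and the middle window are also given without these times. Changes of single genes, role groups and pairs are given with all times only. Markers of other states moved less: 0 of 8 haploid-cell and 0 of 7 vegetative-cell markers passed the test in any comparison. All 8 spore-formation and all 6 early meiosis markers had a higher mean in the late than in the middle window. Of these, 6 spore-formation markers and 1 early meiosis marker passed the test. The part of these markers in the results below was not tested.

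Large-subunit transcripts did not decline steadily. The median log2 ratio of the members was -0.17 at 0.0 h, -0.43 at 0.5 h, 0.48 at 1.0 h, -0.42 at 1.5 h and -1.16 at 2.0 h. In the middle window it was -0.24 at 2.5 h, -0.51 at 3.5 h, 0.18 at 4.0 h and 0.11 at 4.5 h. In the late window it was -1.30 at 5.0 h, -1.59 at 5.5 h and -0.66 at 6.0 h. On the mean of both arrays, the members were thus highest at 1.0 h and at 4.0 to 4.5 h, and lowest at 2.0 h and from 5.0 h on. Of 78 members, 35 had their highest value at 1.0 h, 16 at 4.0 h and 12 at 4.5 h. The lowest value fell at 5.5 h in 31 members, at 2.0 h in 19 and at 5.0 h in 15. The number of members below 0 was 16 of 79 at 1.0 h, and 72, 74 and 74 at the 3 late times. At 0.0 h, where time-zero RNA was set against itself, it was already 60 of 79.

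**Figure D1:**
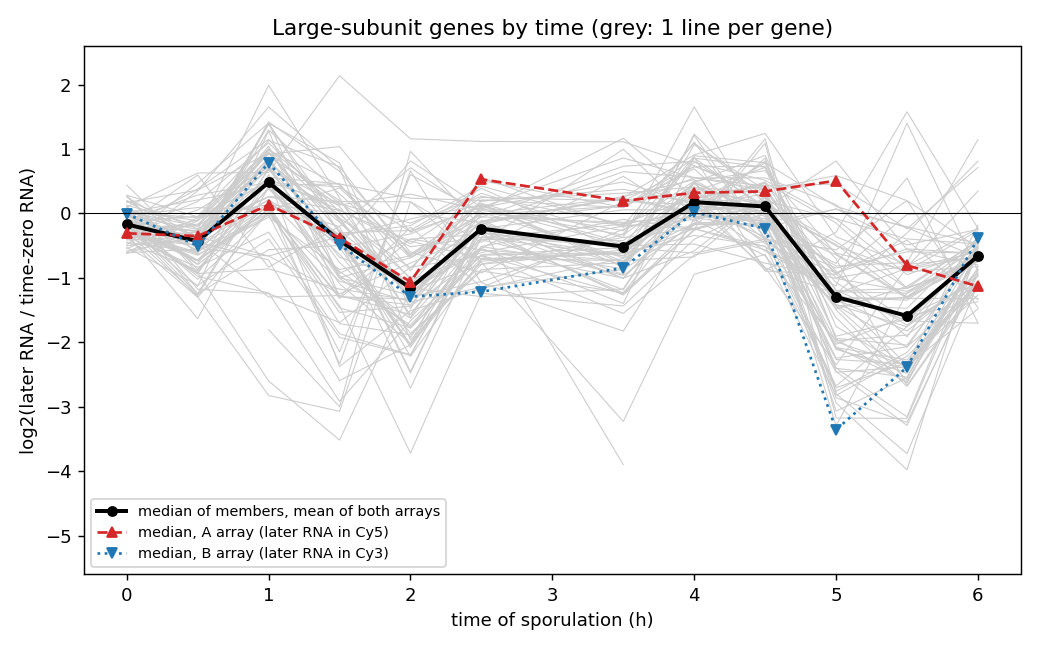
Log2 ratio of later RNA over time-zero RNA (y axis) against time in hours (x axis) for 79 large-subunit genes, 1 grey line per gene, with the members' median over both arrays (black) and on the A (red) and B (blue) arrays alone. The black line peaks at 0.48 at 1.0 h and reaches -1.59 at 5.5 h, and the A and B medians lie farthest apart at 5.0 h.

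The dip at 2.0 h was seen on both arrays, with medians of -1.06 on A and -1.29 on B. The peak at 1.0 h was 0.13 on A and 0.79 on B. The arrays parted in the middle and late windows. The members' median was 0.53 on A and -1.22 on B at 2.5 h, and 0.19 and -0.84 at 3.5 h. It was 0.32 on A and 0.02 on B at 4.0 h, and 0.34 and -0.23 at 4.5 h. At 5.0 h it was 0.51 on A and -3.36 on B, and at 5.5 h -0.81 and -2.39. At 6.0 h it was -1.13 on A and -0.39 on B. On the A arrays alone the medians were thus highest at 2.5 and 5.0 h, not at 1.0 h. Only 5.5 h was low on both arrays among times at which both arrays also showed the spore-formation genes raised. At 3.5, 5.0 and 6.0 h the array with the lower members' median was also the one on which the spore-formation genes were raised. The members were bright spots, at a median of the 77.2nd percentile of all genes in the time-zero channel, and 21.5% and 25.9% of their spots carried the flag S on the B arrays of 5.0 and 5.5 h, against 7.10% and 7.36% of all gene spots. No source used here says what this flag marks, and its part in the late values was not tested.

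Members followed one another closely. The correlation of a member with the members' median course over the 12 times had a median of 0.795, against 0.807 for 56 small-subunit genes and -0.02 for all genes. These are descriptions, since members are part of the median course and the points share arrays. Of 78 members, 16 had a correlation over 0.9, led by RPL27A at 0.971 and RPL20A at 0.964, while 8 stayed under 0.3. The 2 members with a negative value were RPL15B and RPL43B, both at -0.34. The small-subunit genes had nearly the same medians as the large-subunit genes, with 0.23 at 1.0 h, -1.19 at 2.0 h, 0.33 at 4.0 h and -1.52 at 5.5 h, and no difference between the subunits was tested.

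**Figure D2:**
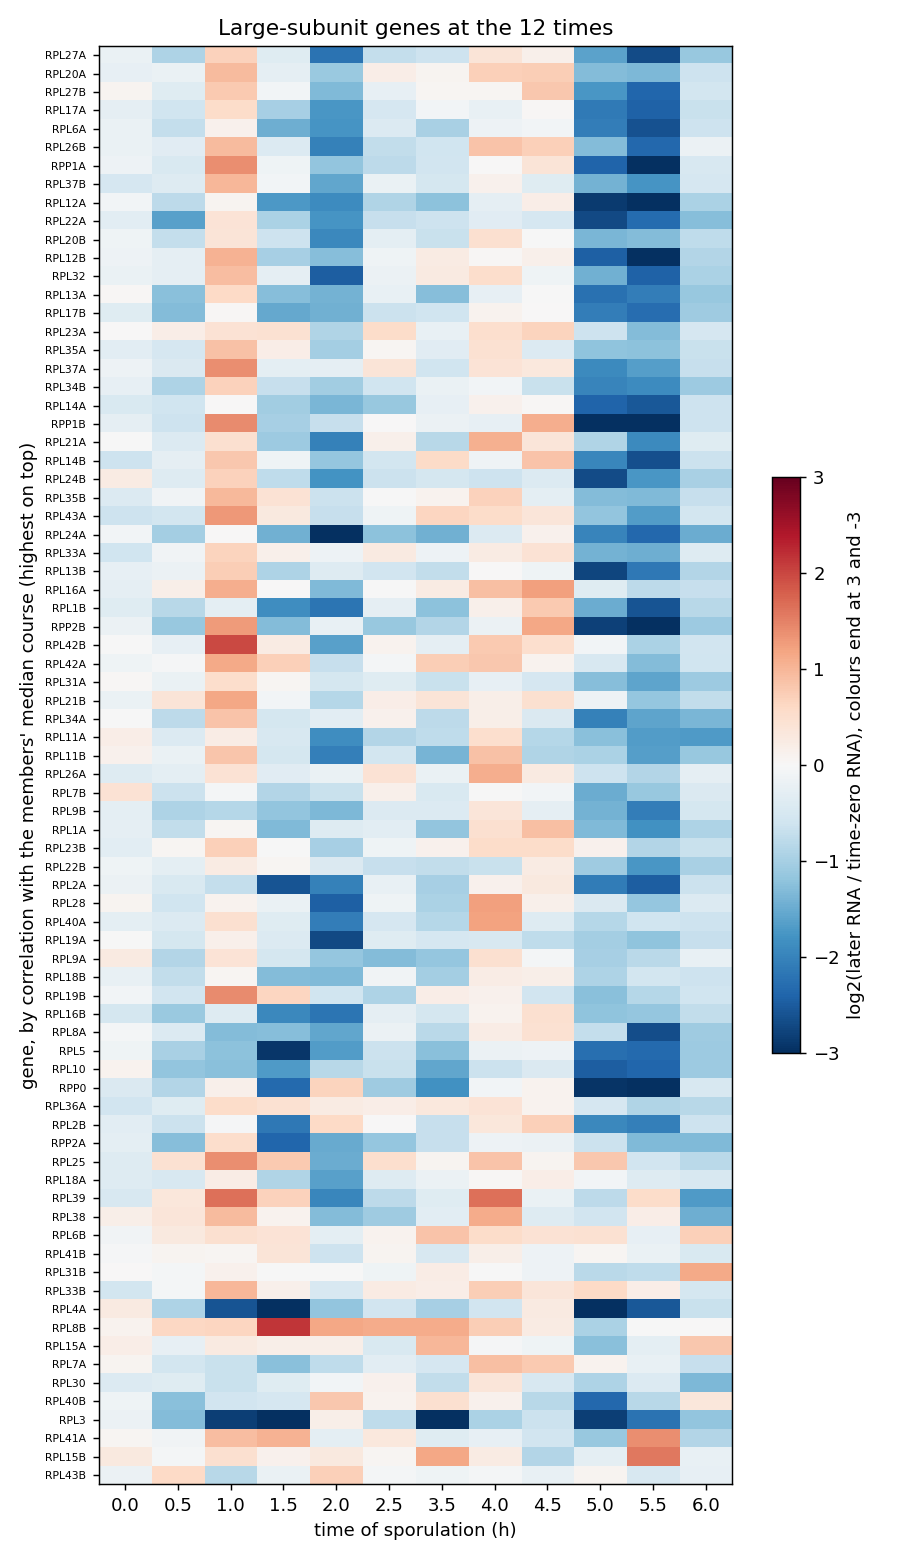
Log2 ratio (colour, red above and blue below time zero, ending at 3 and -3) of 78 large-subunit genes (rows, ordered by their correlation with the members' median course) at the 12 times in hours (columns). The rows at the top share a red column at 1.0 h and blue columns at 2.0, 5.0 and 5.5 h, and differ in colour at 4.0 h. RPL15B and RPL43B close the list.

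Nearly all members were lower in the late than in the middle window. The late mean lay below the middle mean in 76 of 78 members, with a median difference of -1.16 on the log2 scale, against 0.03 over all genes. In limma with Benjamini-Hochberg adjustment over 6283 genes at 5%, RPL12B was the 1 member called, and 0.318% of all genes were called lower and 3.63% in either direction. At an unadjusted p under 0.05, 47 members were lower and 0 higher, against 6.57% of all genes lower. In 33 members every late value lay below every middle value, against 5.25% of all genes. The difference was negative on both the A and the B arrays in 66 members, with medians of -0.71 and -1.57. Times of a window stood in for replicates, so these p-values are set by how far successive times lay apart, true changes between them included.

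These counts turned on the late samples. Without 6.0 h, limma called 22 members lower, against 1.58% of all genes, and without 5.0 h or without 5.5 h it called 0. Without 5.0 and 6.0 h, which left 5.5 h as the lone late sample, assumed to vary like the other windows, 11 were called lower, against 2.39% of all genes, and the median difference was -1.42. Without 3.5 h as well, 15 were called lower, against 3.18% of all genes, RPL15B was called higher, and the median was -1.49. Among the earlier times, 8 were called lower without 1.0 h (0.318% of all genes), 3 without 2.0 h (0.302% of all genes), 1 (RPL1A) without 3.5 h, and 0 without any single one of the others. The median difference stayed between -1.34 and -0.95 whichever single time was left out.

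**Figure D3:**
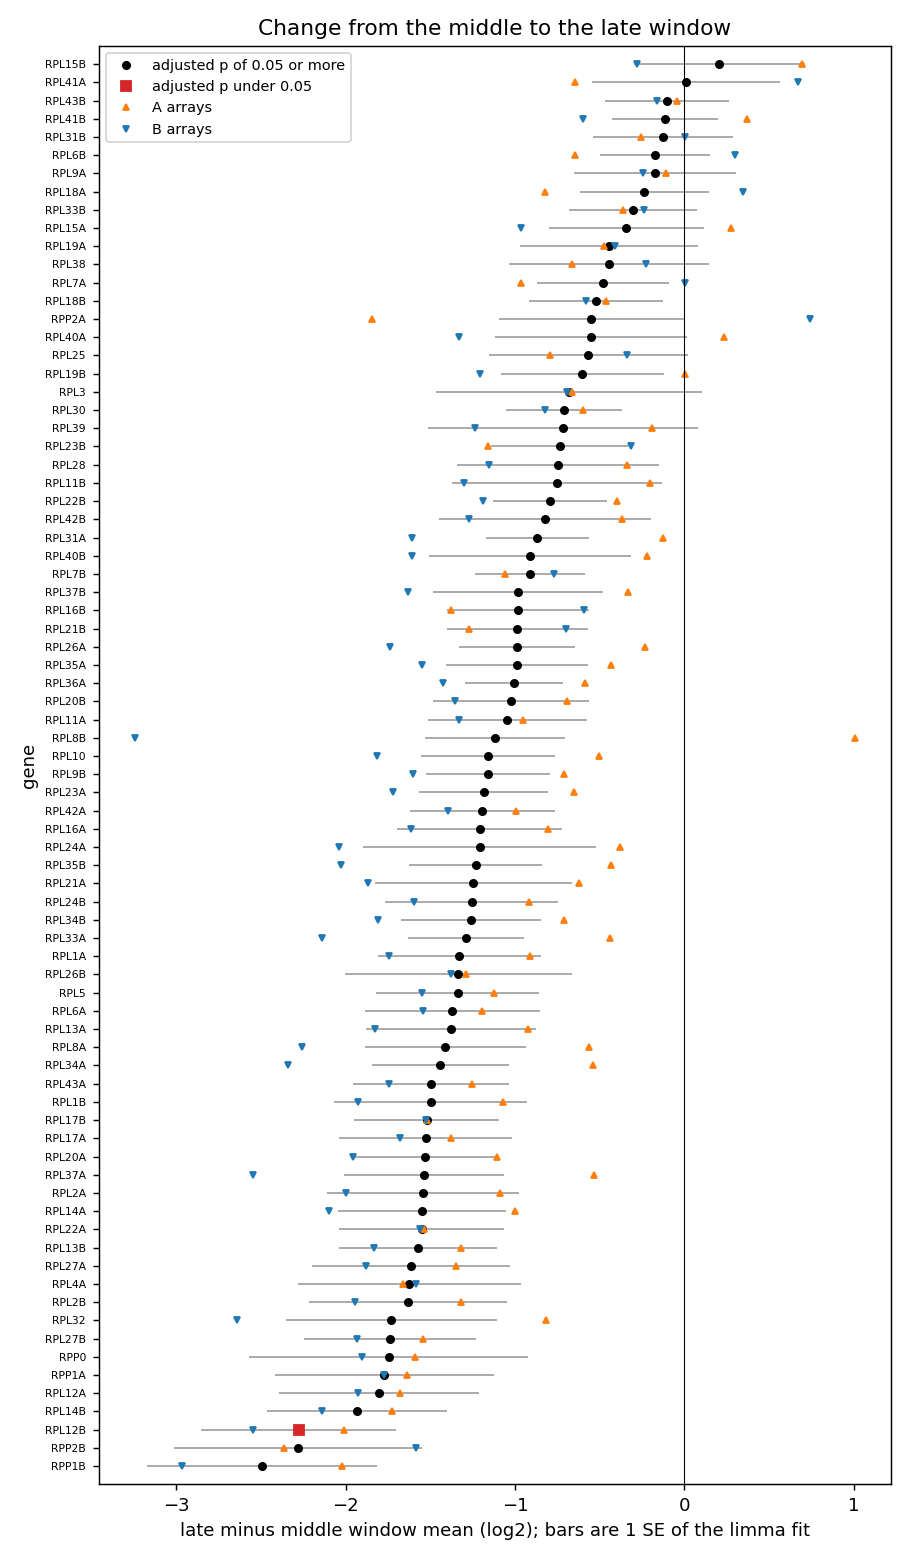
Difference between the late and the middle window mean on the log2 scale (x axis) for 78 large-subunit genes (y axis, sorted). Black circles and the red square (RPL12B, adjusted p = 0.0455) give the fitted change with 1 SE, and orange and blue triangles give the A and B arrays alone. Of the 78 changes, 76 lie below 0, and most blue triangles lie left of the orange ones.

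The genes of the P stalk and its base held 4 of the 5 lowest differences. The stalk is a flexible arm that draws in the GTPase factors of translation, and it is built of the acidic proteins P1 and P2, encoded by RPP1A, RPP1B, RPP2A and RPP2B, carried on P0, encoded by RPP0, with the RPL12 protein at its foot. The 7 genes had a median difference of -1.80 between the late and the middle window, 6 were lower on both the A and the B arrays, RPP2A was not, and 1 passed the test. This grouping by role was made with the values known and carries no test of its own.

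RPL12B had values of -0.12, 0.24, 0.03 and 0.14 in the middle window and of -2.45, -3.29 and -0.88 at 5.0, 5.5 and 6.0 h. All 3 late values lay below all 4 middle values, which were close to time zero and to each other. The change was -2.28 ± 0.58 (SE, limma, 3 against 4 samples, adjusted p = 0.0455), with -2.01 on the A arrays and -2.54 on the B arrays. Each of the 6 late arrays gave a negative value, from -0.76, -1.73 and -1.19 on A to -4.14, -4.85 and -0.56 on B. The adjusted p ranged from 0.00861 without 6.0 h to 0.616 with windows that ended at 1.5 and 4.0 h. In the early window the values were -0.27, 1.04, -1.0 and -1.27, so that RPL12B was already low at 1.5 and 2.0 h and overlapped the late range.

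RPL12A, its paralog, had middle values of -0.89, -1.23, -0.26 and 0.20 and late values of -2.86, -3.24 and -0.94. The 6.0 h value lay inside the middle range. The change was -1.80 ± 0.59 (limma, adjusted p = 0.115), which did not pass.

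RPP1B went from middle values of 0.01, -0.18, -0.24 and 1.09 to -3.17, -3.18 and -0.61 in the late window. The ranges did not overlap, and both the 5.0 and the 5.5 h sample stood far below every earlier one. The change of -2.49 ± 0.68 was the lowest of all members, with an adjusted p of 0.0647 in limma, short of the threshold. Its paralog RPP1A had middle values of -0.79, -0.57, 0.01 and 0.39 and late values of -2.40, -3.16 and -0.48, a change of -1.77 ± 0.65 (limma, adjusted p = 0.151). The 6.0 h value again fell among the middle ones.

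RPP2B had middle values of -1.15, -0.87, -0.17 and 1.16 and late values of -2.80, -3.73 and -1.09. Its 4.5 and 5.0 h values rest on the A array alone. The 6.0 h value overlapped the middle window, and the change of -2.28 ± 0.73 had an adjusted p of 0.109 in limma. RPP2A moved less, from -1.16, -0.70, -0.15 and -0.17 to -0.64, -1.32 and -1.32, and its ranges overlapped. Its change of -0.55 ± 0.55 (limma, adjusted p = 0.636) was -1.84 on the A arrays and 0.74 on the B arrays. RPP0 had middle values of -1.08, -1.83, -0.08 and 0.11 and late values of -2.94, -3.98 and -0.47, with a change of -1.75 ± 0.83 (limma, adjusted p = 0.274). Its 5.5 h value was the lowest of any member at any time. Over all arrays, 17 of 48 RPP0 spots and 26 of 48 RPP2B spots carried the flag S, against 4 of 48 for RPP2A. The part of this flag in these values was not tested.

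**Figure D4:**
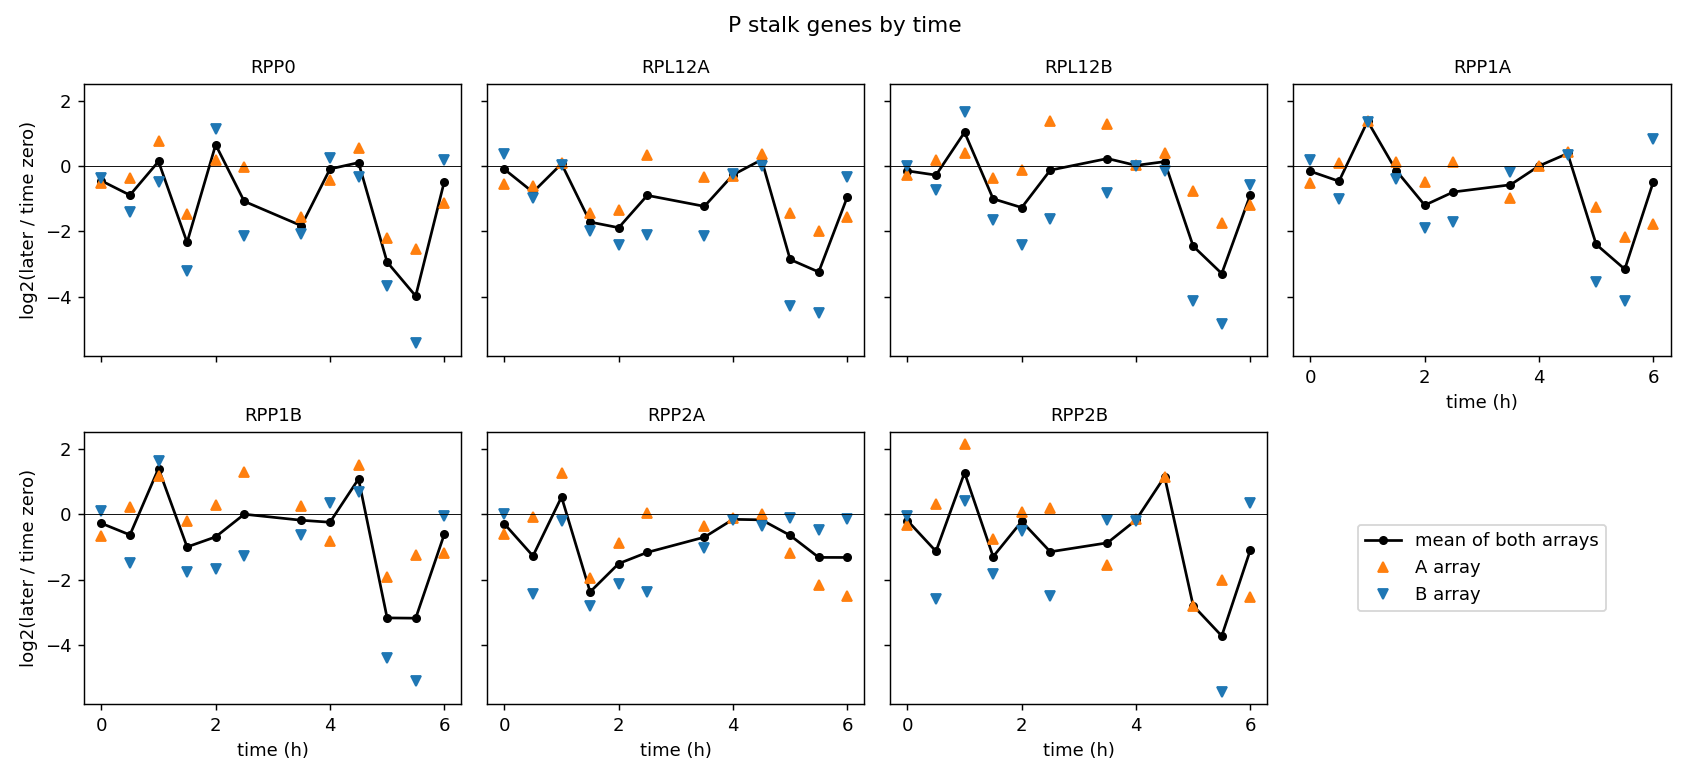
Log2 ratio of later RNA over time-zero RNA (y axis, 1 scale for all panels) against time in hours (x axis) for the 7 genes of the P stalk and its base, with the mean of both arrays (black), the A array (orange) and the B array (blue). All but RPP2A drop to -2.40 or below at 5.0 and 5.5 h on the black line and lie between -1.09 and -0.47 at 6.0 h.

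Genes of the 5S particle and of the peptidyl transferase centre were also lower in the late window, and none of them passed the test. RPL5 and RPL11 bind the 5S ribosomal RNA and join the growing subunit as a particle. RPL5 had early values of -0.98, -1.23, -2.92 and -1.67, middle values of -0.65, -1.25, -0.17 and -0.16, and late values of -2.27, -2.34 and -1.08. It was low both before and after the middle window, with a change from middle to late of -1.34 ± 0.48 (limma, adjusted p = 0.148). RPL11A had late values of -1.25, -1.67 and -1.70, all below its middle values of -0.87, -0.77, 0.50 and -0.84, and differed by -1.05 ± 0.47 (limma, adjusted p = 0.252). RPL11B had late values of -0.95, -1.65 and -1.13, which overlapped middle values of -0.54, -1.40, 0.87 and -0.89.

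RPL10, which joins the subunit as one of the last proteins and completes its catalytic site, had values of -1.18, -1.24, -1.69 and -0.83 in the early window. In the middle window it had -0.66, -1.55, -0.64 and -0.43, and in the late window -2.47, -2.38 and -1.09. It was below time zero at all 11 later times and negative on 21 of 22 later arrays. The 0.0 h value was 0.12, and the late window differed from it by -2.09 ± 0.60 (limma, adjusted p = 0.150), where the single 0.0 h sample was assumed to vary like the times of the other windows.

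RPL3, a protein that reaches toward the catalytic site, had early values of -1.29, -2.83, -3.07 and 0.18, middle values of -0.76, -3.23, -0.94 and -0.64 and late values of -2.82, -2.22 and -1.17. Its deepest values were spread over all 3 windows, the ranges overlapped, and its correlation with the members' median course was 0.09. RPL2A, another protein of this site, ran from -0.45, -0.72, -2.59 and -2.04 through -0.22, -1.01, 0.12 and 0.30 to -2.10, -2.48 and -0.65. Like RPL5 it was low at 1.5 and 2.0 h and again at 5.0 and 5.5 h. RPL28, whose mutations give resistance to cycloheximide, had early values of -0.59, 0.12, -0.20 and -2.46, middle values of -0.14, -0.95, 1.23 and 0.16 and late values of -0.44, -1.16 and -0.42. Its late and middle windows overlapped, and its change was -0.75 ± 0.60 (limma, adjusted p = 0.551).

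The genes of the polypeptide tunnel and its exit, through which the new protein leaves, were lower in the late window in 12 of 12 tested without RPL31B, with a median of -0.99 and 0 calls, and 11 of them were lower on both the A and the B arrays. RPL4A, which lines the narrowest stretch of the tunnel, had early values of -0.92, -2.60, -3.52 and -1.19, middle values of -0.57, -1.0, -0.58 and 0.27 and late values of -3.07, -2.55 and -0.66. The late and the early values covered much the same range. Its paralog RPL4B had no value at 0.5 and 4.0 h, and was at -3.90 at 3.5 h and -3.30 at 5.0 h. RPL25, the docking site of factors that meet the new protein at the exit, had early values of 0.47, 1.40, 0.79 and -1.48, middle values of 0.51, 0.09, 0.86 and 0.07 and late values of 0.82, -0.56 and -0.80. Its mean of both arrays was above time zero at 8 of the 11 later times, but it was negative on 11 of 22 later arrays. From 2.5 to 5.0 h it was positive on the A and negative on the B array at every time. Its change from middle to late was -0.57 ± 0.59 (limma, adjusted p = 0.653).

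RPL39, a very small protein of the tunnel wall, swung widely, with 1.65 at 1.0 h, -1.97 at 2.0 h, 1.65 at 4.0 h and -1.70 at 6.0 h. Its other values were 0.35 at 0.5 h, 0.70 at 1.5 h, -0.79 at 2.5 h, -0.37 at 3.5 h, -0.20 at 4.5 h, -0.78 at 5.0 h and 0.55 at 5.5 h. The ranges of its windows overlapped. Its arrays were alike at 1.0 h, with 1.70 on A and 1.60 on B, and far apart at other times. They gave -3.57 on A and -0.36 on B at 2.0 h, and 3.07 and 0.24 at 4.0 h. At 5.0 h they gave 4.17 on A and -5.72 on B. RPL17A and RPL17B, which sit at the tunnel, differed by -1.53 ± 0.51 and -1.52 ± 0.43 with no overlap between windows, with adjusted p of 0.120 and 0.0735 in limma.

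Of the other genes without a second copy, RPL32 had early values of -0.28, 0.93, -0.27 and -2.48, middle values of -0.17, 0.26, 0.53 and -0.13 and late values of -1.44, -2.42 and -0.95. Its late values lay below all middle ones, with a change of -1.73 ± 0.62 (limma, adjusted p = 0.147). RPL30, whose protein binds its own transcript and blocks its splicing, stayed between -0.75 and 0.36 through the early and middle windows and was at -0.92, -0.41 and -1.34 in the late one. Its later-RNA spots were above the blank spots on 0 of 8 early, 2 of 8 middle and 3 of 6 late arrays. RPL38 had early values of 0.36, 0.94, 0.11 and -1.30, middle values of -1.06, -0.32, 1.11 and -0.40 and late values of -0.56, 0.20 and -1.47, which overlapped throughout.

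The changes nearest 0 or above it were in RPL15B (0.21 ± 0.50), RPL41A (0.01 ± 0.56) and RPL43B (-0.10 ± 0.36). RPL15B had late values of -0.29, 1.58 and -0.23 against middle values of 0.05, 1.17, 0.24 and -0.88. It was thus high in the 1 late sample, 5.5 h, at which the members' median was lowest. RPL43B stayed between -0.84 and 0.71 at all 12 times. RPL41A, which encodes the smallest of the proteins, had early values of -0.11, 0.92, 1.04 and -0.29, middle values of 0.31, -0.37, -0.24 and -0.57 and late values of -1.13, 1.40 and -0.89. Its late values enclosed the middle ones, and it was above the blank spots on 2 of 6 late and 1 of 8 middle arrays. RPL9A, RPL33B and RPL19A differed by -0.17 ± 0.48, -0.30 ± 0.38 and -0.44 ± 0.52, with overlapping ranges. RPL31B was not above the blank spots on any middle or late array, so no change is given for it, though it is among the 78 genes counted.

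RPL14B completed the 5 lowest changes. Its values were -0.54, 0.58, -0.12 and 0.86 in the middle window and -1.95, -2.63 and -0.64 in the late one. The ranges did not overlap, and the change was -1.93 ± 0.53 (limma, adjusted p = 0.0686). Over the members, the change from middle to late had a Spearman correlation of -0.491 with the brightness of the spot, the brighter genes having the lower values, a description over 78 genes that share arrays.

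From the early to the middle window the members' median difference was 0.34, with 60 of 78 above 0, against a median of 0.00305 over all genes. In limma 0 members were called, against a share of 0% of all genes. At an unadjusted p under 0.05, 8 members were higher and 0 lower, against 3.82% of all genes higher. The medians were 0.84 on the A arrays and -0.15 on the B arrays. The median over both was 0.62 without 1.0 h, 0.05 without 2.0 h and -0.20 with windows that ended at 1.5 and 4.0 h. The 3 highest changes with the same direction on both were those of RPL4A at 1.59 ± 0.61, RPL16B at 1.36 ± 0.39 and RPL2A at 1.25 ± 0.53, with adjusted p from 0.559 to 0.648 in limma. RPL16B had early values of -1.11, -0.40, -1.92 and -2.20 and middle values of -0.26, -0.54, 0.12 and 0.49. Its 1.0 h value of -0.40 lay among the middle values. The 3 lowest were RPL41A, RPL19B and RPL8B, of which RPL19B had early values of -0.57, 1.42, 0.65 and -0.60 and middle values of -0.92, 0.19, 0.14 and -0.58. The windows of RPL19B overlapped. RPL8B had early values of 0.63, 0.64, 2.14 and 1.16 and middle values of 1.12, 1.11, 0.74 and 0.23, all above time zero.

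Against the 0.0 h sample, in which time-zero RNA was set against itself, the early window had a median difference of -0.24 and 48 of 78 members below 0. It was -0.54 without 1.0 h and -0.02 without 2.0 h, and the spread of the single 0.0 h sample was again taken from the other windows. In limma 0 members were called, and 3 were lower at an unadjusted p under 0.05, against 3.9% of all genes. These were RPL4A at -2.33 ± 0.96, RPL5 at -1.57 ± 0.71 and RPL10 at -1.35 ± 0.58. The early window was not uniform. At 1.0 h most members were above time zero, led by RPL42B at 1.99, while 16 were below it, among them RPL3 at -2.83, RPL4A at -2.60, RPL4B at -1.80, RPL8A at -1.30, RPL10 at -1.24 and RPL5 at -1.23. The same 6 genes were at -1.27 or below at 1.5 h.

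The late window differed from the 0.0 h sample by a median of -1.03, with 73 of 78 members below 0. In limma 0 were called, against 0.891% of all genes, and 16 were lower at an unadjusted p under 0.05, against 4.04%. The genes called over the whole array in this comparison were all higher in the late window, and no gene was called lower. The members' median difference was -0.15 on the A arrays and -2.02 on the B arrays. The window mean was also tested against a ratio of 0, which leaves out the 0.0 h sample, its values as well as its spread. The members' median of -0.17 in that sample was thus not subtracted. In this test 11 members were called lower and RPL8B higher in the early window, against 6.33% of all genes lower. In the late window 46 members were called lower, against 8.59% of all genes.

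The A and B copies of the 33 complete pairs mostly moved together. Their correlation over the 12 times had a median of 0.738, from -0.355 for RPL43 to 0.961 for RPL35, against a median of 0.546 between members that were no pair, as descriptions over shared arrays. The difference A minus B was compared between the late window and the 8 earlier later times with an exact two-sided permutation test over 3 against 8 samples. Of 33 pairs, 3 had an unadjusted p under 0.05 and 0 passed after adjustment over the pairs, with adjusted p of 0.356 and above. With a smallest possible p of 0.0121, at least 9 pairs would have had to reach it together for any to pass, so the adjusted result says nothing about a single pair. Those 3 were RPL20 (p = 0.0121), RPL35 (p = 0.0242) and RPL6 (p = 0.0485), from the exact permutation test.

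**Figure D5:**
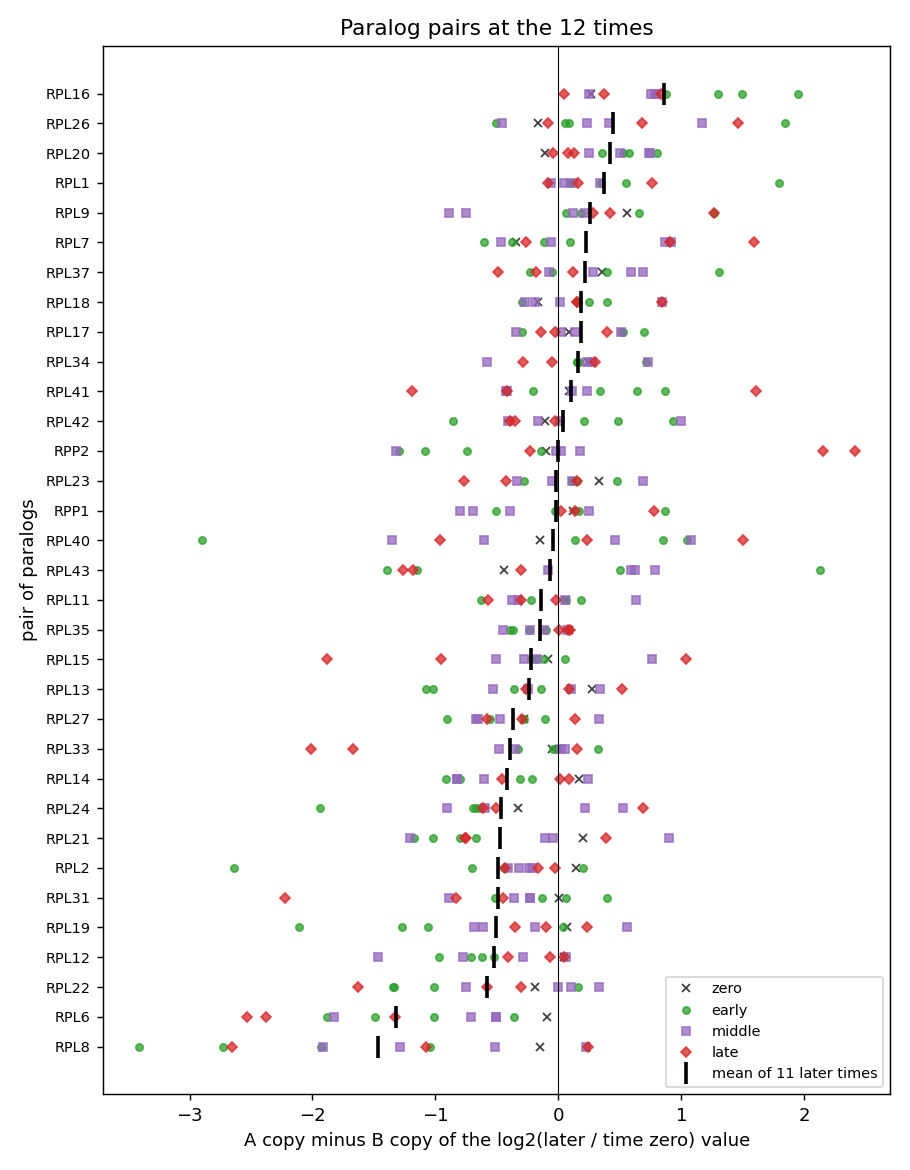
Difference between the A and the B copy in log2 ratio (x axis) for 33 pairs (y axis, sorted by the mean of the 11 later times, black bars), with 1 point per time by window. RPL16 lies right of 0 and RPL6 left of 0 at all 11 later times, and RPL8 spans -3.41 to 0.24.

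A few pairs kept 1 copy above the other. RPL16A was above RPL16B at 11 of 11 later times and on 19 of 22 arrays, by a mean of 0.86, with 0.86 on the A arrays and 0.86 on the B arrays. The difference was 1.30, 1.49, 1.95 and 0.88 in the early window, 0.25, 0.78, 0.79 and 0.75 in the middle window and 0.84, 0.37 and 0.05 in the late window. On the mean of both arrays it was largest early and overlapped between the middle and the late window. Late minus earlier was 0.28 on the A arrays and -1.49 on the B arrays, so the later narrowing was not seen on both. The difference at 0.0 h was 0.27.

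RPL6A was below RPL6B at 11 of 11 later times and on 19 of 22 arrays, by a mean of -1.32. The difference was -1.01, -0.36, -1.88 and -1.49 in the early window, -0.51, -1.82, -0.71 and -0.51 in the middle window and -2.53, -2.38 and -1.33 in the late window, against -0.09 at 0.0 h. RPL6A, like most members, was low at 5.0 and 5.5 h, with -2.08 and -2.62, while RPL6B stayed between -0.28 and 0.86 at the later times. Late minus earlier was -1.04, with -0.23 on the A arrays and -1.86 on the B arrays.

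RPL8A was below RPL8B on 19 of 22 later arrays, by a mean of -1.46. The difference was -1.04, -1.93, -3.41 and -2.73 in the early window, -1.29, -1.91, -0.52 and 0.23 in the middle window and 0.24, -2.65 and -1.08 in the late window. It was widest at 1.5 and 2.0 h and turned slightly positive at 4.5 and 5.0 h. RPL8B was positive at all 8 early and middle times, up to 2.14 at 1.5 h, and stood at -0.95, -0.02 and 0.01 in the late window. Its difference from middle to late was 1.01 on the A arrays and -3.25 on the B arrays, so no direction is given for it.

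Other pairs differed by amounts that changed sign. The pair encoding P2 had differences of -0.14, -0.74, -1.08 and -1.30 in the early window, -0.02, 0.17, 0.02 and -1.32 in the middle window and 2.15, 2.41 and -0.23 in the late window. At 5.0 h RPP2B had the A array alone, with -2.80 against -1.17 for RPP2A there. At 5.5 h the copies were close on the A array, with -2.15 for RPP2A and -2.01 for RPP2B, and far apart on the B array, with -0.48 and -5.44. The gap at 5.5 h thus rests on 1 array, and the late shift of 2.00 had an exact permutation p of 0.0606 and an adjusted p of 0.356. The ubiquitin fusion genes RPL40A and RPL40B, each of which makes ubiquitin joined to a ribosomal protein, had the largest SD of the difference, 1.30 over the 11 later times, with -2.90 at 2.0 h and 1.50 at 5.0 h. RPL40A had values of -2.08 at 2.0 h, 1.21 at 4.0 h and -0.85 at 5.0 h, where RPL40B had 0.82, 0.13 and -2.35. Neither copy was the higher one throughout, and A was above B at 7 of 11 later times.

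The RPL43 difference was -1.15, 2.13, 0.50 and -1.40 in the early window, -0.08, 0.79, 0.62 and 0.59 in the middle window and -1.26, -1.19 and -0.30 in the late window. The 3 late values lay below the 4 middle ones. RPL43A had the members' usual course, with 1.30 at 1.0 h and -1.67 at 5.5 h, while RPL43B was near time zero. The late shift was -1.17, with an exact permutation p of 0.0970 and an adjusted p of 0.356. The RPL15 difference was between -0.50 and 0.05 at 7 of 11 later times and reached 0.76 at 4.5 h, -0.95 at 5.0 h, -1.88 at 5.5 h and 1.04 at 6.0 h. RPL15A was above the blank spots on only 3 of 6 late, 3 of 8 middle and 1 of 8 early arrays, which limits this difference.

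RPL22 is named for its role in meiosis, since its protein has been reported to aid the translation of IME1, the gene that starts the programme. RPL22A had middle values of -0.70, -0.62, -0.34 and -0.51 and late values of -2.71, -2.31 and -1.27. All late values lay below all middle ones, and the difference was -1.55 ± 0.49 (limma, adjusted p = 0.104). RPL22A was above the blank spots on 8 of 8 middle but only 2 of 6 late arrays. RPL22B was above the blank spots on 2 of 6 late, 1 of 8 middle and 0 of 8 early arrays. The smallest SDs were those of RPL35 (0.20), RPL20, RPL11, RPL17 and RPL27, none of them above 0.371.

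The pair differences were only partly repeated when the dyes were exchanged. The mean difference had the same sign on the A and the B arrays in 26 of 33 pairs. The time course of the difference on the A arrays correlated with that on the B arrays by a median of 0.15, with 21 pairs above 0 and 4 above 0.5.

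Among other genes of the pathway, the 56 small-subunit genes had a median change of -1.13 from the middle to the late window, and 3 were called lower. Of 11 regulators of ribosomal protein genes, 1 was called. STB3, a repressor that binds the ribosomal RNA processing element, rose by 1.63 ± 0.40 (limma, adjusted p = 0.0411), with 0.42 on the A arrays and 2.85 on the B arrays. SFP1, an activator of ribosomal protein genes, differed by -1.30 ± 0.51 (limma, adjusted p = 0.191). Of 21 chaperones and maturation factors of the large subunit, 0 were called in any comparison. Their median from middle to late was -0.59, and the 2 largest changes were those of RPF1 at -0.99 ± 0.31 and ALB1 at -0.98 ± 0.29. Of 12 elongation factors 0 were called, with a median of -0.30, and HEF3, a second form of elongation factor 3, was at 1.45 ± 0.48 with an adjusted p of 0.117 in limma.

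Outside the genes matched to either subunit, the array ID YCR031 had the highest correlation with the members' median course over the 12 samples, 0.952. It matched no entry of the gene table as written, and lacks only the last letter of YCR031C, the locus tag of the small-subunit gene RPS14A, so it may not lie outside both subunits. NIP100 followed at 0.888, then YPR099C at 0.863, SHR3 at 0.856 and PAN2 at 0.855. Their levels over time were of smaller range, with NIP100 between -1.0 and 0.46.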

How the data were processed

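The authors deposited, for each of 24 arrays, spot intensity values and local backgrounds in 2 channels, and a series table with 1 log2 ratio per gene and sample. Channel 1 was taken as Cy3 and channel 2 as Cy5 on all arrays. This choice was inferred from the values, since B arrays turned by sign then mostly followed the A arrays and the deposited table. With it, the later RNA was read from Cy5 on A and Cy3 on B arrays. With B arrays turned by sign, the mean of both arrays tracked the deposited log2 table at every time but 0.5 h. Their correlation was 0.16 at 0.5 h and between 0.88 and 0.96 at the other times. With B not turned it was -0.71 at 0.5 h. No source used here names the software or the background method, and the intensities were taken as background-subtracted since negative values occur. Spots with a value of 0 or below or flagged U or Z were left out and S kept. Log ratios were loess-normalized (limma 3.58.1, R 4.3.3, span 0.3, 4 iterations), and the 2 spots of a gene and the 2 arrays of a time were averaged. Windows were compared with lmFit and eBayes, adjusted by Benjamini-Hochberg over 6283 genes. On simulated data for the late against the middle window, 84% of changes of 2 and 99% of changes of 4 on the log2 scale were recovered. The simulated noise was independent between genes, with the same spread in every window, and each shift was equal at every late time. Members moved together and differed between the late times, so these shares need not hold for them. A spot counted as above the blank spots past their 95th percentile. The arrays carry no read depth, and their number limits the precision. All file headers carry the same date, so no batch by date could be tested. Genes were named by locus tag (5716) or older name (57), and 520 were unmatched.

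Members, lists, windows and role groups were chosen with earlier results of these data known. Named genes were those called, the 5 highest and 5 lowest late against middle and 3 and 3 middle against early among genes with 1 direction on both arrays, the P stalk, the single-copy genes and the 5 pairs with the largest and smallest SD of the difference. Others named, such as RPL6, RPL16, RPL5, RPL11, RPL22 and the correlation leaders, were chosen after their values were seen. The alternatives covered normalization, background, flags, dye orientation, windows, dim genes, the deposited table and left-out times.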

Additional observations from a re-analysis of the deposited data

Results flagged for a closer look

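In windows of 4 samples, 54 genes or pairs were tested for a sample far from the other 3 (gap over the window's range above Dixon's 95% critical value), which made 108 windows, of which chance flags about 1 in 20. A single sample stood apart in 6. In the early window, RPP1B was at 1.408 at 1.0 h with the others between -0.997 and -0.627. RPL17B was at 0.0264 at 1.0 h with the others between -1.54 and -1.30. RPL15A, above the blank spots on only 1 of 8 early arrays, was at -0.24 at 0.5 h with the others between 0.18 and 0.26. In the middle window, RPL3 was at -3.23 at 3.5 h with the others between -0.94 and -0.64. RPL11A was at 0.50 at 4.0 h with the others between -0.87 and -0.77. The difference of RPP2A minus RPP2B was -1.32 at 4.5 h, where RPP2B was measured on the A array alone, with the others between -0.02 and 0.17. The late window, with 3 samples, was not tested.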

How the results depend on the processing

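The direction of each window's median over the members was kept except in the change from early to middle, which was -0.20 with windows that end at 1.5 and 4.0 h and -0.17 on the B arrays alone, over the members measured on every B array, in place of 0.34. With those windows the late change was -0.53 in place of -1.16. The late window against 0.0 h was -0.38 with arrays scaled to a common spread, -0.15 on the A arrays alone and -1.99 on the B arrays alone, in place of -1.03. The single call from the middle to the late window became 0 with median centring, scaling, normexp, S spots left out, either dye orientation alone, the other windows or dim genes left out. It became 4 with the authors' deposited table (RPL12B, RPL22A, RPL34A and RPP1B), 11 without 5.0 and 6.0 h, 16 without 3.5 h as well, both chosen after seeing the data, and between 0 and 22 with single times left out. Against 0.0 h, the late window gave 1 call without 5.0 and 6.0 h and 2 without 3.5 h as well, and between 0 and 1 with single times left out. The 4 calls with the deposited table and the calls against 0.0 h with times left out are given without a share of all genes. Whether they exceed that share was not tested. Tested against a ratio of 0, without subtracting the 0.0 h values, the early window gave 12 calls and the late one 46. No single pair of paralogs could pass the pair test, so its 0 calls say nothing about stability.

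Single times left out moved the medians between -1.34 and -0.95 (late against middle), -1.30 and -0.84 (late against zero), 0.05 and 0.62 (middle against early) and -0.54 and -0.02 (early against zero). The cause of these shifts was not tested, except that leaving out times or dim genes itself changes the number of samples or genes. Of the results for single named genes, 1745 kept their direction and side of the threshold, 154 changed the sign of a value that was not called, 37 newly passed and 16 no longer passed. No paired analysis was possible because the labels give the samples no replicate numbers. The planned search of promoters for the Rap1 motif was not run. Between 35 and 79 of 79 members were above the blank spots per array in the later channel, which limits the dim ones, such as RPL31B, RPL22B and RPL30.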
